A study of Mus musculus with 16 samples.

Results

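The mitochondrial ribosomal proteins were taken as every protein-coding gene whose symbol begins with Mrpl or Mrps and a digit in the filtered count tables of 2 RNA-seq experiments on mouse bone marrow-derived macrophages (BMMs). This gave 77 genes, 48 with an Mrpl and 29 with an Mrps name, among 10764 genes kept in one experiment and 10788 in the other. The same 77 genes were found in both filtered tables, and the counts below cover all of them. Any gene of the family that the authors' filter on low counts dropped lies outside this set. Within the filtered tables the genes were chosen by name and gene type alone. Mrps36 carries the family name but encodes a subunit of the 2-oxoglutarate dehydrogenase complex rather than of the ribosome, and Mrps18a and Mrps30 encode proteins of the large subunit. By position in the ribosome the set therefore held 50 large-subunit genes, 26 small-subunit genes and Mrps36.

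Mitochondria keep their own ribosome, the mitoribosome, which translates the few mRNAs encoded in mitochondrial DNA, all of them for core subunits of the respiratory chain and ATP synthase. Its RNAs are encoded in the mitochondrial genome, whereas all of its proteins are encoded in the nucleus, made in the cytosol and imported. Many of them descend from bacterial ribosomal proteins and others are found only in mitochondria. Osteoclasts, the multinucleated cells that resorb bone, form from macrophage precursors under macrophage colony-stimulating factor (M-CSF) and receptor activator of NF-κB ligand (RANKL), and are rich in mitochondria. The mitochondrially encoded mRNAs and ribosomal RNAs were not analysed here.

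The study asked what SREBP2, the transcription factor of cholesterol synthesis, and IRF7, a factor of the interferon response, contribute to osteoclast formation. In the SREBP2 experiment the controls were LysM cre mice (LysMCre) and the mutants carried LysM cre with floxed Srebf2 (SREBP2ΔM), so that both groups shared the Cre driver, which is active in myeloid cells. In the IRF7 experiment C57BL6 wild-type mice (B6WT) were compared with IRF7 deficient mice (IRF7KO), which lack the gene in every cell. BMMs of female mice were kept in M-CSF (23.3 ng/ml, from L929 conditioned medium) alone or with RANKL (40 ng/ml) for 3 further days. These doses are those of the labels, and the sources do not all give the same dose of RANKL. The labels give no age. Each of the 8 groups had 2 libraries, 16 in all, described as biological replicates. No source states that they came from separate mice or cultures, and the p-values measure only the spread between these libraries.

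The libraries held 7703178 to 13387849 counts in the SREBP2 experiment and 8178505 to 12746916 in the IRF7 experiment, so that 1 count stood for 0.0710 to 0.140 CPM, the count scaled to a common library size. All CPM values below were scaled by the trimmed mean of M-values (TMM) within an experiment. Srebf2 stood at 233 to 282 CPM in the 4 LysMCre libraries and at 0.1 to 1.0 CPM in the 4 SREBP2ΔM libraries, and Irf7 at 43.4 to 81.0 CPM in B6WT and 0.3 to 2.1 CPM in IRF7KO. The summed CPM of 10 osteoclast markers was 81.5 to 149 with M-CSF and 32091 to 77225 with RANKL, and that of 6 macrophage markers was 5539 to 6398 and 3580 to 6194. The macrophage sum does not follow most of its markers, since only 1 of the 6 had a log2 fold change with RANKL above 0 in each genotype. Their median log2 fold changes were -0.55, -0.98, -1.53 and -1.95 in LysMCre, SREBP2ΔM, B6WT and IRF7KO. Neutrophil markers summed to 65.3 to 1170 CPM with M-CSF and 4.51 to 18.9 CPM with RANKL, and lymphocyte markers to 4.1 to 24.4 and 0.26 to 0.73 CPM. Of 5 erythroid markers none is listed in the SREBP2 table, which leaves out genes with no count in any library, and 4 are listed in the IRF7 table, with up to 0.76 CPM in IRF7KO with M-CSF and 0 elsewhere. The listed stromal markers stayed at or under 9.88 CPM.

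RANKL was accompanied by higher mRNA of many mitoribosomal genes in every genotype, led by Mrps35 and Mrps6 of the small subunit and by Mrpl41, Mrps9, Mrpl9, Mrpl34, Mrpl52 and Mrpl44. In LysMCre cells 35 of the 77 genes (45.5%) were higher with RANKL by edgeR's quasi-likelihood test at an adjusted p under 0.05, where 29% of all 10764 genes were higher, and 2 were lower, where 28.6% of all genes were lower. In SREBP2ΔM cells 33 were higher and 1 lower, against 28.6% and 27.6% of all genes. In B6WT cells 40 were higher and 1 lower, against 24.9% and 22.5% of all genes. In IRF7KO cells 40 were higher and 1 lower, against 25.8% and 23.5% of all genes. The median log2 fold change of the 77 genes was 0.36 in LysMCre, 0.34 in SREBP2ΔM, 0.45 in B6WT and 0.46 in IRF7KO cells, whereas that over all genes was 0.00 to 0.01. The rise was thus spread over many genes and mostly below 2-fold, and the lower calls fell far short of their share among all genes.

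These counts moved with single libraries. The 35 higher calls in LysMCre became 22 without its M-CSF replicate 1 (with 2614 of all genes higher) and 22 without its RANKL replicate 2 (2658 of all genes), the 40 in B6WT became 24 without its M-CSF replicate 1 (2046 of all genes), and the 40 in IRF7KO became 25 without its M-CSF replicate 1 (1956), 24 without its M-CSF replicate 2 (2049) and 24 without its RANKL replicate 2 (2579).

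**Figure D1:**
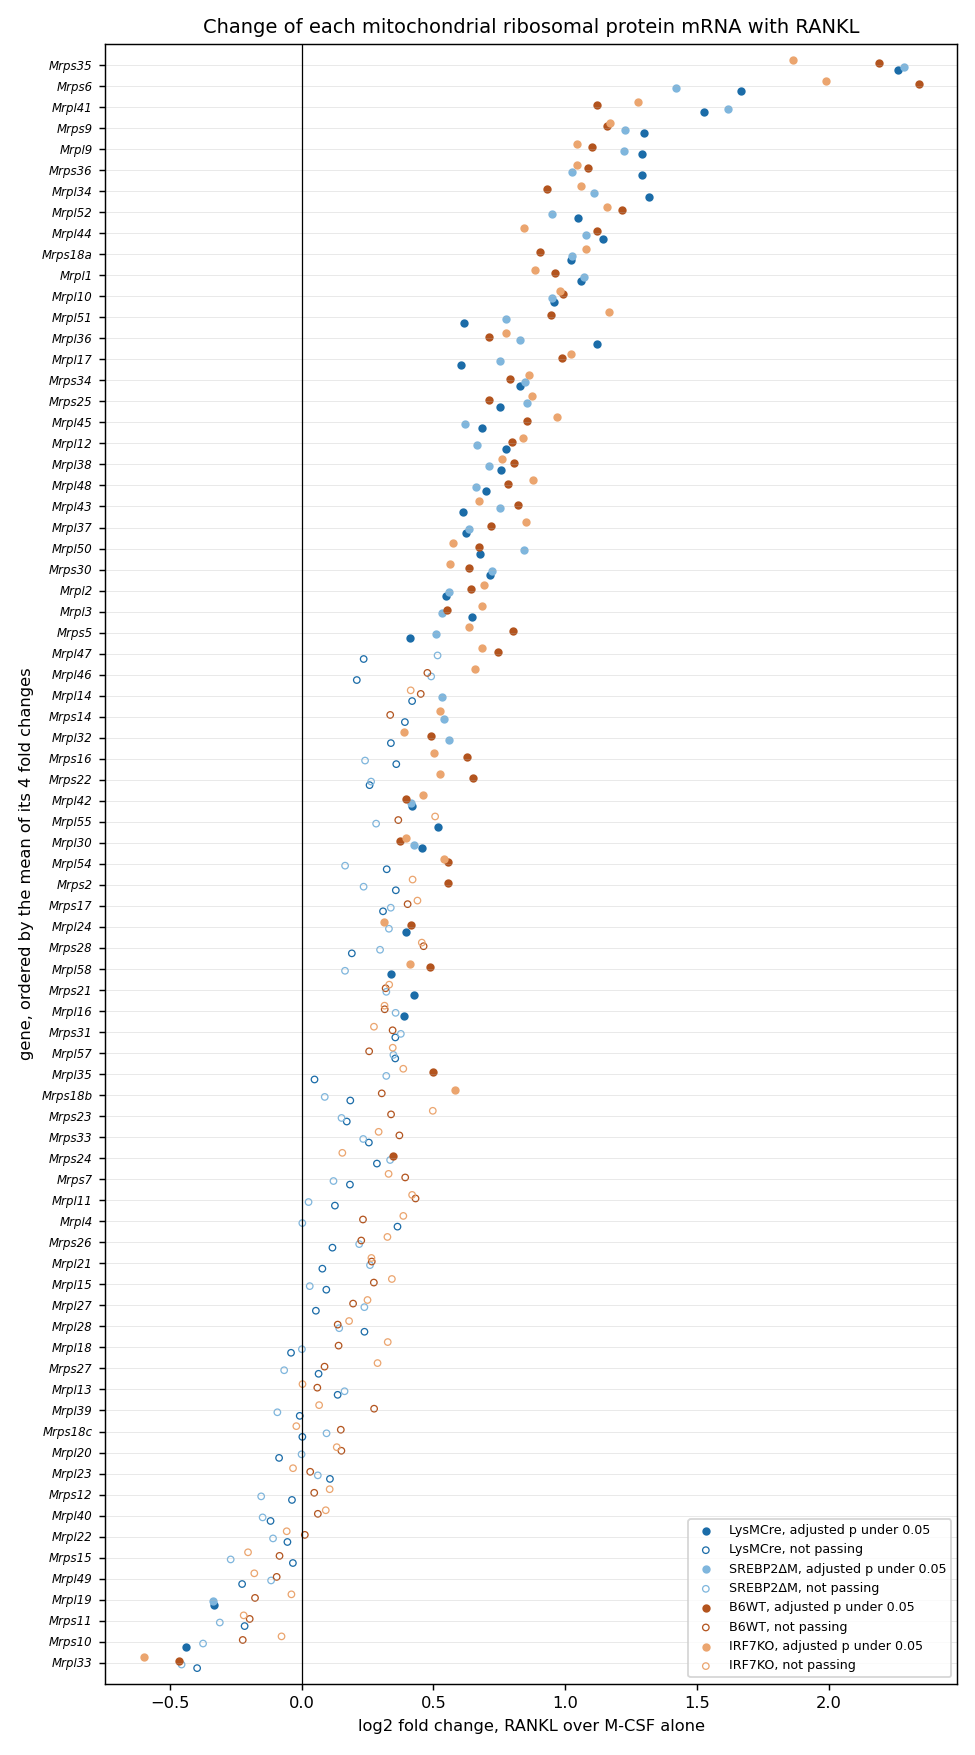
Log2 fold change with RANKL over M-CSF alone (horizontal axis) of each of the 77 mitochondrial ribosomal protein genes (rows, ordered by the mean of their 4 fold changes) in LysMCre, SREBP2ΔM, B6WT and IRF7KO cells; filled points had an adjusted p under 0.05 and open points did not. Mrps35 and Mrps6 stand apart at the top, most genes lie between 0 and 1.3, and 6 genes at the bottom are below 0 in all 4 genotypes.

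Over all 8 libraries with M-CSF the 77 genes together took 0.245 to 0.312% of the counts in kept genes, and over the 8 libraries with RANKL 0.311 to 0.449%. Their summed level was 2362 and 2704 CPM in LysMCre cells with M-CSF and 3353 and 3664 CPM with RANKL. In SREBP2ΔM cells it was 2899 and 2500 CPM with M-CSF and 3592 and 3821 CPM with RANKL. Both RANKL libraries lay above both M-CSF libraries of the genotype. The same held in B6WT cells, with 2480 and 2834 against 3709 and 3982 CPM, and in IRF7KO cells, with 2679 and 2653 against 3514 and 4324 CPM. With 2 libraries against 2 an exact two-sided permutation test cannot give a p below 0.333, so no test of the sum was made. The ratio of the summed Mrpl to the summed Mrps level stayed between 2.11 and 2.22 in all 16 libraries. In such bulk RNA a change in the cell types present and a change in RNA per cell cannot be told apart.

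Per gene, both RANKL libraries exceeded both M-CSF libraries for 52 of the 77 genes in LysMCre, 50 in SREBP2ΔM, 62 in B6WT and 60 in IRF7KO cells, where 40.7%, 39.7%, 37.9% and 38.1% of all genes did so. The reverse arrangement was found for 4, 6, 3 and 3 of the genes and for 40.1%, 39%, 37.4% and 38% of all genes. The test called 30 genes higher in all 4 genotypes, which is 39.0% of the set against 20.2% of the 10598 genes kept in both experiments. They were Mrpl1, Mrpl2, Mrpl3, Mrpl9, Mrpl10, Mrpl12, Mrpl17, Mrpl30, Mrpl34, Mrpl36, Mrpl37, Mrpl38, Mrpl41, Mrpl42, Mrpl43, Mrpl44, Mrpl45, Mrpl48, Mrpl50, Mrpl51 and Mrpl52, with Mrps5, Mrps6, Mrps9, Mrps18a, Mrps25, Mrps30, Mrps34, Mrps35 and Mrps36. A further 17 genes were higher in 1 to 3 genotypes, 3 were lower in at least 1, and 27 passed in none. No gene was called in opposite directions in different genotypes.

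Mrps35, a small-subunit protein with no bacterial counterpart (ENSMUSG00000040112, chr6:147042764-147073991, + strand, GRCm38), rose most in LysMCre and SREBP2ΔM cells. Its LysMCre libraries were at 13.8 and 16.8 CPM with M-CSF and at 73.4 and 73.6 CPM with RANKL, and those of SREBP2ΔM at 15.8 and 15.9 against 75.9 and 78.6 CPM. In B6WT it was at 13.4 and 18.03 against 70.3 and 73.1 CPM, and in IRF7KO at 19.9 and 21.1 against 69.5 and 79.7 CPM. The RANKL libraries of all genotypes thus lay within a narrow band, far above every M-CSF library. The log2 fold change was 2.26 ± 0.13 in LysMCre (SE; edgeR adjusted p = 2.79e-06), 2.28 ± 0.13 in SREBP2ΔM (3.11e-06), 2.19 ± 0.16 in B6WT (3.41e-05) and 1.86 ± 0.16 in IRF7KO (5.86e-05).

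Mrps6, the counterpart of bacterial S6 (ENSMUSG00000039680, chr16:92058270-92112227, + strand), rose most in B6WT and IRF7KO cells. It was at 6.2 and 8.36 CPM in B6WT with M-CSF and at 34.1 and 39.6 CPM with RANKL, and at 8.83 and 7.93 against 30.8 and 36.0 CPM in IRF7KO. In LysMCre it was at 8.61 and 8.38 against 25.4 and 28.6 CPM, and in SREBP2ΔM at 11.4 and 8.92 against 23.2 and 30.9 CPM. Groups did not overlap in any genotype, and log2 fold changes were 2.34 ± 0.19 in B6WT (edgeR adjusted p = 5.13e-05), 1.99 ± 0.19 in IRF7KO (9.54e-05), 1.67 ± 0.19 in LysMCre (0.000111) and 1.42 ± 0.20 in SREBP2ΔM (0.00033). Its locus also holds Slc5a3, a myo-inositol transporter gene on the same strand that shares 10.4% of the exon bases of Mrps6, and Slc5a3 itself rose by 3.18, 2.87, 3.63 and 3.43 on the log2 scale in LysMCre, SREBP2ΔM, B6WT and IRF7KO. How the counting assigned reads in the shared exon is not given in the sources used here, so the values of Mrps6 are uncertain and the part of Slc5a3 in them was not tested.

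Among the other small-subunit genes, Mrps9, the counterpart of bacterial S9 (ENSMUSG00000060679, chr1:42851233-42905683, + strand), rose in every genotype. It was at 23.3 and 27.3 CPM with M-CSF and 66.0 and 58.6 CPM with RANKL in LysMCre, 29.7 and 25.4 against 65.2 and 63.8 CPM in SREBP2ΔM, 22.8 and 26.4 against 57.8 and 52.3 CPM in B6WT, and 24.1 and 23.9 against 50.7 and 57.4 CPM in IRF7KO. Its fold changes were close to each other, at 1.30 ± 0.14, 1.23 ± 0.14, 1.16 ± 0.13 and 1.17 ± 0.13 on the log2 scale in that order (edgeR adjusted p = 7e-05 to 0.000229). Mrps5, Mrps25 and Mrps34 also rose in all 4 genotypes. Of the small-subunit genes 7, 7, 10 and 10 of 26 were higher in LysMCre, SREBP2ΔM, B6WT and IRF7KO, where 29%, 28.6%, 24.9% and 25.8% of all genes were, so that in LysMCre and SREBP2ΔM the share of higher small-subunit genes did not exceed that of all genes. The calls of Mrps5 in LysMCre and SREBP2ΔM and of Mrps34 in B6WT and IRF7KO were lost when RANKL replicate 2 was left out, and those of Mrps5 in LysMCre, Mrps34 in B6WT and Mrps34 in IRF7KO also without M-CSF replicate 1, 1 and 2. Mrps25 and Mrps34 overlap neighbours: 69.8% of the exon bases of Mrps25 lie opposite Nr2c2, and 63.4% of those of Mrps34 opposite Mapk8ip3 and 37.0% within Nme3 on its own strand. Whether counting used strand is not given in the sources used here, and for Mrps25 and Mrps34 the source of the reads is therefore uncertain. The same limit holds for other genes of the set with exon bases opposite a neighbour. Among them are Mrpl43, called higher in all 4 genotypes, with 33.4% opposite Twnk, and Mrpl24, with 26.3% opposite Rrnad1. Of all 50-base runs of the exons 22.4% in Mrpl22, 19.2% in Mrps18c, 17.3% in Mrps36 and 11.3% in Mrpl41 also occur in another gene, mostly one with few or no counts, and their levels are uncertain to that extent.

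The large subunit held most of the genes that rose, with 27, 25, 29 and 29 of 50 called higher in LysMCre, SREBP2ΔM, B6WT and IRF7KO, against the same shares of all genes. Mrpl41, a protein found in mitochondrial but not bacterial ribosomes (ENSMUSG00000036850, chr2:24974117-24975098, - strand), led it in LysMCre, SREBP2ΔM and IRF7KO. It was at 20.2 and 19.02 CPM with M-CSF and 62.1 and 51.1 CPM with RANKL in LysMCre, and at 20.9 and 18.8 against 62.8 and 59.0 CPM in SREBP2ΔM. In B6WT it was at 22.5 and 22.3 against 49.98 and 47.6 CPM, and in IRF7KO at 23.0 and 19.9 against 48.9 and 55.2 CPM. The log2 fold changes of 1.53 ± 0.14, 1.62 ± 0.14, 1.12 ± 0.12 and 1.28 ± 0.12 had edgeR adjusted p-values of 3.04e-05, 2.58e-05, 0.000236 and 0.000121. Mrpl41 was thus about as high with M-CSF in both experiments. With RANKL most of its libraries in the SREBP2 experiment lay higher, but a LysMCre library (51.1 CPM) lay below an IRF7KO library (55.2 CPM). The experiments were normalised separately and this difference was not tested.

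Mrpl9, the counterpart of bacterial L9 (ENSMUSG00000028140, chr3:94443318-94451130, + strand), was at 23.2 and 37.3 CPM with M-CSF and 65.9 and 82.4 CPM with RANKL in LysMCre, 35.5 and 31.8 against 72.9 and 83.9 in SREBP2ΔM, 36.7 and 41.8 against 80.6 and 87.6 in B6WT, and 39.2 and 39.5 against 76.8 and 85.8 in IRF7KO. It rose by 1.29 ± 0.22, 1.22 ± 0.22, 1.10 ± 0.12 and 1.05 ± 0.12 on the log2 scale (edgeR adjusted p = 0.00117, 0.00178, 0.000202 and 0.000246), and one LysMCre library with M-CSF stood clearly below the other. Mrpl34 (ENSMUSG00000034880, chr8:71464959-71465747, + strand), one of the smallest bacterial-type proteins, went from 16.4 and 18.5 to 39.4 and 47.8 CPM in LysMCre, which is 1.32 ± 0.18 on the log2 scale (edgeR adjusted p = 0.000295). In the other genotypes Mrpl34 rose by 1.11, 0.93 and 1.06. Mrpl52, specific to mitochondria, went from 34.3 and 29.7 to 73.9 and 74.9 CPM in B6WT (1.22 ± 0.17, edgeR adjusted p = 0.00079). Mrpl51, also specific to mitochondria, went from 65.7 and 59.9 to 126 and 156 CPM in IRF7KO (1.17 ± 0.15, 0.000411) and from 70.3 and 78.1 to 101 and 126 CPM in LysMCre (0.61 ± 0.16, 0.0103), a call that was lost without M-CSF replicate 1 or RANKL replicate 2 of LysMCre (edgeR adjusted p of up to 0.0978).

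The stalk of the large subunit, which recruits the translation factors, is built from the products of Mrpl10 and Mrpl12. Mrpl10 was at 39.0 and 40.8 CPM with M-CSF and 80.1 and 75.02 CPM with RANKL in LysMCre, 44.1 and 40.9 against 83.7 and 80.3 in SREBP2ΔM, 37.0 and 42.6 against 79.6 and 78.5 in B6WT, and 40.8 and 39.5 against 74.7 and 83.8 in IRF7KO. Its log2 fold changes of 0.96, 0.95, 0.99 and 0.98, each with an SE of 0.11 or 0.12, were nearly the same. Mrpl12 was at 57.3 and 80.3 against 103 and 133 CPM in LysMCre, 81.0 and 79.3 against 111 and 143 in SREBP2ΔM, 77.3 and 94.5 against 134 and 164 in B6WT, and 88.5 and 81.7 against 117 and 187 in IRF7KO. Its replicates differed more, and its changes of 0.78 ± 0.20, 0.67 ± 0.20, 0.80 ± 0.23 and 0.84 ± 0.23 had edgeR adjusted p-values of 0.00905, 0.0196, 0.0211 and 0.0168. These calls of Mrpl12 were lost without M-CSF replicate 1 or RANKL replicate 2 in every genotype and also without M-CSF replicate 2 in SREBP2ΔM and IRF7KO, with edgeR adjusted p-values of up to 0.0674, 0.111, 0.13 and 0.092. Mrpl45, which lies at the exit of the nascent chain and faces the inner membrane, rose by 0.69, 0.62, 0.86 and 0.97, and Mrpl44, which has a ribonuclease III-like fold, by 1.14, 1.08, 1.12 and 0.85.

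**Figure D2:**
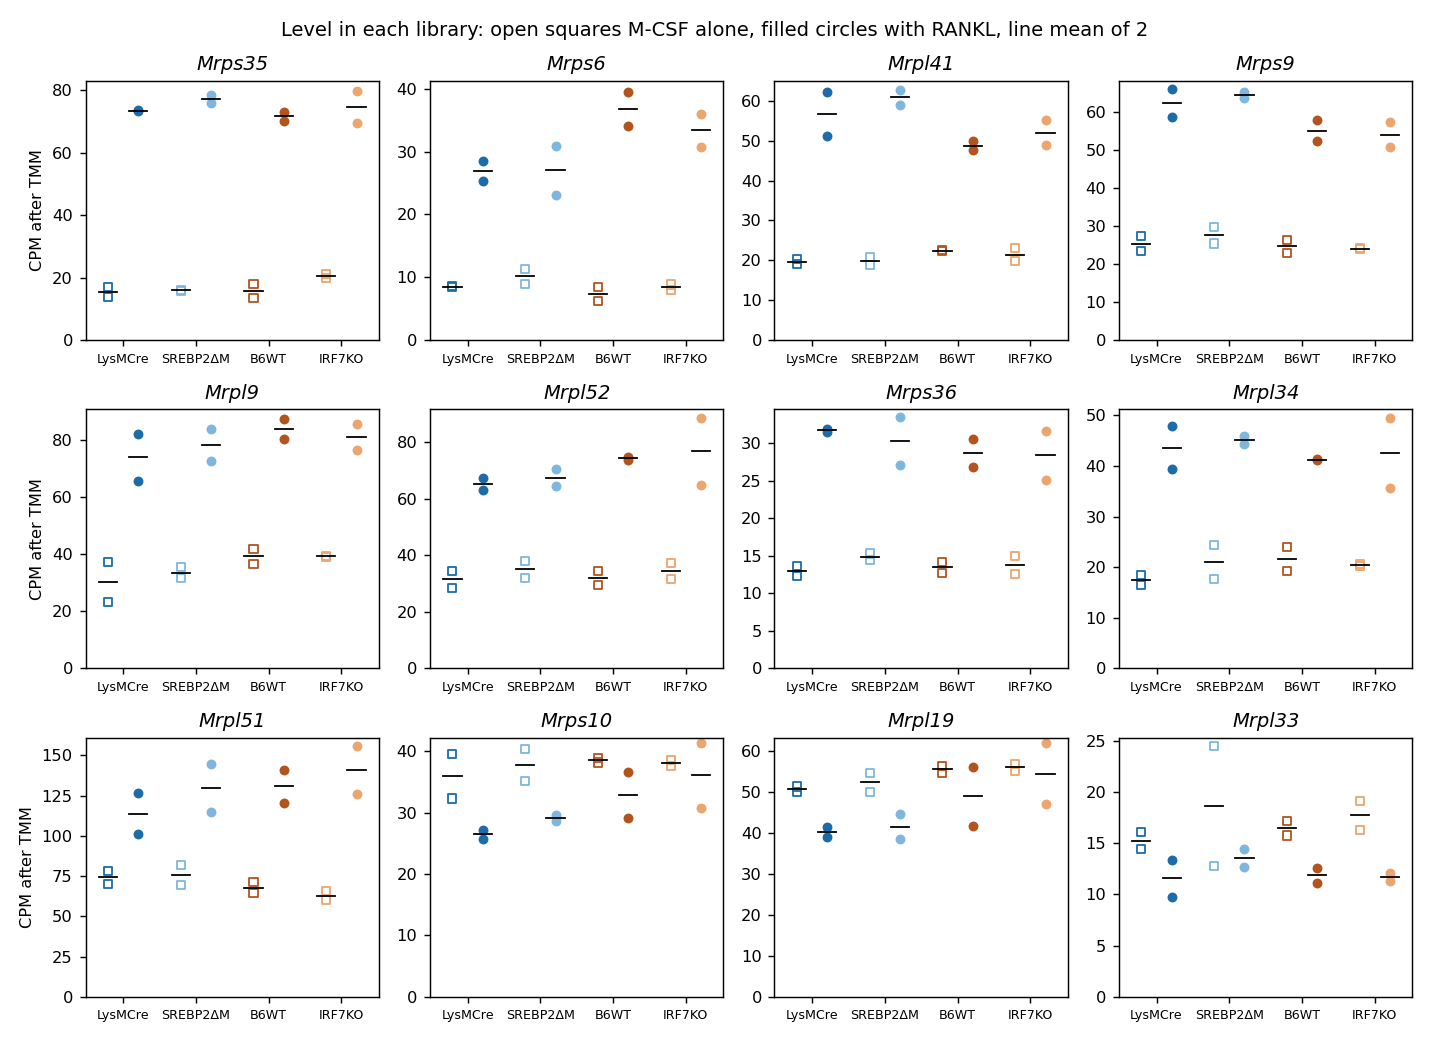
Level in each library of 12 mitochondrial ribosomal protein genes (vertical axis, CPM after TMM scaling, starting at 0) in the 4 genotypes; open squares are M-CSF alone, filled circles are with RANKL and lines are the mean of 2 libraries. Mrps35 goes from 13.4 to 21.1 CPM up to 69.5 to 79.7 CPM, whereas Mrps10, Mrpl19 and Mrpl33 lie lower with RANKL in some genotypes and overlap in others.

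The 3 paralogues of bacterial S18 differed. Mrps18a, whose product sits in the large subunit, was at 35.2 and 40.3 CPM with M-CSF and 75.6 and 77.7 CPM with RANKL in LysMCre, and at 36.0 and 44.9 against 73.9 and 77.6 CPM in B6WT. It rose in all 4 genotypes, by 1.02, 1.02, 0.91 and 1.08 on the log2 scale (edgeR adjusted p = 0.000215, 0.000243, 0.00125 and 0.000508). Mrps18b, in the small subunit, passed in IRF7KO alone of the 4 genotypes, from 27.9 and 27.1 to 35.1 and 47.4 CPM (0.58 ± 0.16, edgeR adjusted p = 0.0198), and its other changes were 0.18, 0.09 and 0.30. That call was lost without M-CSF replicate 1, M-CSF replicate 2 or RANKL replicate 2 of IRF7KO (edgeR adjusted p of up to 0.105). Mrps18c, also in the small subunit, stayed between 12.4 and 16.7 CPM in all 16 libraries and passed in none, with changes of 0.00, 0.09, 0.15 and -0.02. No test of the difference between paralogues was made. Mrps30, a large-subunit protein despite its name, rose by 0.71, 0.72, 0.64 and 0.56. Mrpl58, a ribosome-bound member of the release factor family, rose in LysMCre (0.34, edgeR adjusted p = 0.0488), B6WT (0.49, 0.0125) and IRF7KO (0.41, 0.0252), and in SREBP2ΔM its change was 0.16 (0.313). The LysMCre call of Mrpl58 was lost without any one of its 4 libraries, the B6WT call without M-CSF replicate 1 or RANKL replicate 1, and the IRF7KO call without any one of its 4 libraries. Changes of method lost these calls as well. Of 12 alternatives for each, changes of method included, 2, 9 and 5 kept the call in LysMCre, B6WT and IRF7KO. Mrps36, of the 2-oxoglutarate dehydrogenase complex, went from 13.6 and 12.3 to 31.8 and 31.5 CPM in LysMCre (1.29 ± 0.15, edgeR adjusted p = 0.000126) and rose by 1.03, 1.09 and 1.05 in the other genotypes.

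Mrps10, Mrpl19 and Mrpl33 were the 3 genes called lower in at least 1 genotype. Mrps10, the counterpart of bacterial S10, was at 32.3 and 39.5 CPM with M-CSF and 27.3 and 25.8 CPM with RANKL in LysMCre, a log2 change of -0.44 ± 0.14 (edgeR adjusted p = 0.0281), and its changes in SREBP2ΔM, B6WT and IRF7KO were -0.37, -0.22 and -0.08 (0.056, 0.314 and 0.741). Mrpl19, the counterpart of bacterial L19, was at 49.9 and 51.2 against 39.0 and 41.4 CPM in LysMCre (-0.33 ± 0.12, 0.0425) and at 54.6 and 49.98 against 38.4 and 44.4 CPM in SREBP2ΔM (-0.33 ± 0.12, 0.0443). In the IRF7 experiment its changes were -0.18 and -0.04 and the groups overlapped. Mrpl33, the counterpart of bacterial L33, was at 15.7 and 17.1 against 11.1 and 12.6 CPM in B6WT (-0.46 ± 0.16, 0.0404) and at 19.1 and 16.3 against 11.3 and 12.1 CPM in IRF7KO (-0.60 ± 0.16, 0.014). In the SREBP2 experiment the changes of Mrpl33 were -0.40 and -0.46, of like size but with an SE of 0.29 and 0.30. None of these lower calls held under every alternative setting. Of the exon bases of Mrpl19, 36.0% overlap Gcfc2 on the opposite strand.

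Grouped by origin, 17, 16, 18 and 20 of the 30 ribosomal proteins classed as specific to mitochondria were higher with RANKL in LysMCre, SREBP2ΔM, B6WT and IRF7KO and none was lower, with median log2 fold changes of 0.56, 0.56, 0.64 and 0.58. This class includes Mrps18a and Mrps18b, although they are paralogues of bacterial S18. Of the 45 with a bacterial counterpart 16, 16, 20 and 18 were higher and 2, 1, 1 and 1 lower, with medians of 0.31, 0.32, 0.39 and 0.39. In the same order 29%, 28.6%, 24.9% and 25.8% of all genes were higher and 28.6%, 27.6%, 22.5% and 23.5% lower. By subunit the medians were 0.41, 0.46, 0.49 and 0.48 for the large and 0.27, 0.25, 0.36 and 0.43 for the small subunit. The medians of both origins and both subunits were above that of all genes in every genotype. The differences between these classes were not tested.

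Between the 2 experiments, which share no library, the log2 fold changes of the 77 genes in LysMCre and in B6WT had the same sign for 71 genes (92.2%, against 85.5% of the 10598 genes kept in both). Across the 77 genes, which are not independent replicates, Pearson's r was 0.92 and Spearman's rho 0.89, and across all genes they were 0.93 and 0.88. Of the 35 genes higher in LysMCre 32 were also higher in B6WT, which is 91.4% of the former and 80% of the 40 in B6WT. The ordering of the mitoribosomal genes by their change thus recurred across experiments about as closely as the ordering of all genes did.

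Levels between genes were compared per length, as CPM per kb of union exon. The median over the 77 genes was 13.2 with M-CSF and 17.6 with RANKL in LysMCre, 13.9 and 17.9 in SREBP2ΔM, 14.0 and 20.01 in B6WT and 13.7 and 19.5 in IRF7KO. Mrpl12 was the highest in every RANKL group, with 76.95 CPM per kb in LysMCre and 97.3 in B6WT, from 44.9 and 56.1 with M-CSF. Mrps21, Mrpl54 and Mrpl18 were among the other high genes. Mrpl18, which was first in LysMCre with M-CSF at 49.8, was at 48.4 and in place 8 with RANKL. Mrpl34 went from place 9 to place 2 in the same genotype (28.8 to 71.8 CPM per kb) and Mrpl41 from place 19 to place 3 (22.1 to 63.8). Mrps35 was the lowest of the 77 genes in every M-CSF group, and with RANKL its 8.3 to 9.0 CPM per kb placed it between 59 and 67. Mrpl33, Mrps10, Mrpl47, Mrps30 and Mrpl32 were the other low genes. By this measure Mrps35, the gene with the steepest rise in LysMCre and SREBP2ΔM, started at the bottom and stayed in the lower part. Union exon joins the exons of all annotated transcripts, and at 8631 bases that of Mrps35 is the longest of the set. Places per kb depend on this length, for Mrps35 and for the other genes. Without division by length Mrps35 had 703 counts in LysMCre RANKL replicate 1, where Mrps21 had 458.

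Promoter sequences were examined because several factors that bind close to start sites, NRF1, the GABP complex of the ETS family and YY1, are known regulators of nuclear genes for mitochondrial proteins. RefSeq promoter windows on GRCm38.p6, 300 bases from 250 before to 50 after the start, were matched by symbol to 68 of the 77 genes. On either strand the NRF1 letters GCGCATGCG were in 7 of 68 windows (10.3%) and in 1.75% of all 32851 windows, the ETS letters CCGGAAG in 23 (33.8%) and 8.86%, and the YY1 letters AAGATGGCG in 8 (11.8%) and 1.4%. The E-box CACGTG was in 5 (7.35%) and 7.15%, and the sterol element letters TCACNCCAC, a sequence that SREBP proteins bind, in 0 and 1.24%. Windows differ in base composition, which these shares do not take into account. All windows also include those of genes not kept in these experiments, and the share over kept genes alone was not computed. Among the 27 of the 30 genes higher in all 4 genotypes that had a window, 11.1% held the NRF1 letters, 25.9% the ETS letters and 14.8% the YY1 letters, and among the 41 other genes 9.76%, 39% and 9.76%. A match to these letters describes the sequence only, and says nothing of whether a factor was bound.

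The 250 bases before the start are printed for 6 genes, to set genes that rose in all 4 genotypes beside genes that passed in none, with and without a match. Capitals mark matches to the NRF1 letters (GCGCATGCG) and the ETS letters (CCGGAAG), and where 10 capitals stand together they are 2 overlapping NRF1 matches on opposite strands. No ETS match overlapped an NRF1 match in them. Mrpl9 and Mrpl17 rose and hold the NRF1 letters close to the start.
Mrpl9 chr3:94443086-94443335 (+ strand): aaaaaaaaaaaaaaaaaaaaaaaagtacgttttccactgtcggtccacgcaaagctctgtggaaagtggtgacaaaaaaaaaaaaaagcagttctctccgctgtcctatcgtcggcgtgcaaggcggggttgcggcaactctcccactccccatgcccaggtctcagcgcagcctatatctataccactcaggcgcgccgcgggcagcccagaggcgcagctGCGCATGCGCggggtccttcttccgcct
Mrpl17 chr7:105811088-105811337 (- strand): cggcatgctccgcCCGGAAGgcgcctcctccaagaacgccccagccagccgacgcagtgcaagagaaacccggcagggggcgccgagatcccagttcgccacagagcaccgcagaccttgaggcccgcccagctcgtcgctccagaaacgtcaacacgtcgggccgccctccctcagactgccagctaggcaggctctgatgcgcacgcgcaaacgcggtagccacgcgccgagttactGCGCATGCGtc
Mrpl22 and Mrpl39 hold them too and passed in no genotype, with log2 changes of -0.05, -0.11, 0.01 and -0.06 for Mrpl22 and -0.01, -0.09, 0.27 and 0.07 for Mrpl39. The RefSeq start of Mrpl39 lies 498 bases inside the gene as counted, so its printed bases lie within that gene. Its NRF1 letters begin at position -125 from the RefSeq start, farther off than in Mrpl9, Mrpl17 and Mrpl22.
Mrpl22 chr11:58171414-58171663 (+ strand): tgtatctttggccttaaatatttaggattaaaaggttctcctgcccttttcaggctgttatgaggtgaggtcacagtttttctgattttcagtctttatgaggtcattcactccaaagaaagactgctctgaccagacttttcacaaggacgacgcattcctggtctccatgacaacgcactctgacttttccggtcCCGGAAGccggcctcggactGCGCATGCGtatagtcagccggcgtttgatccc
Mrpl39 chr16:84735245-84735494 (- strand): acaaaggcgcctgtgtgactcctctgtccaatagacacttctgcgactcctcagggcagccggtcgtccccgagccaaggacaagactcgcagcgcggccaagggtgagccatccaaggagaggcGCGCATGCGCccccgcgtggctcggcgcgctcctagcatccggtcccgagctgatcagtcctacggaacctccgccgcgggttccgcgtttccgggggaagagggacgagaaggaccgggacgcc
Mrpl41 and Mrps9 rose and hold none of the 5 searched motifs in these bases.
Mrpl41 chr2:24975099-24975348 (- strand): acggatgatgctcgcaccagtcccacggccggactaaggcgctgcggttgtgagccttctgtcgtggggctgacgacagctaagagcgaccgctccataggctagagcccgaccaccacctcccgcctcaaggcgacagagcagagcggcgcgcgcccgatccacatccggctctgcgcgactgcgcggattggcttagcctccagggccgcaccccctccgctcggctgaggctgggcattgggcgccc
Mrps9 chr1:42850983-42851232 (+ strand): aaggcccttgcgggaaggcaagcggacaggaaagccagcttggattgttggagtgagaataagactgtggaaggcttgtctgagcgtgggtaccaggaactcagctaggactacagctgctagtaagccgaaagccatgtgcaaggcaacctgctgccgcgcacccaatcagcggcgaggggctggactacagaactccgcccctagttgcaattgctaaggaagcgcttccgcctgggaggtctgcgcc
Mrpl17 went from 36.7 and 34.3 to 73.8 and 67.3 CPM in B6WT and rose by 0.60, 0.75, 0.99 and 1.02 across the 4 genotypes, whereas Mrpl22 stayed between 15.0 and 20.5 CPM in all 16 libraries. Genes with the same NRF1 letters before their RefSeq start therefore included both kinds of response.

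Neighbours within a locus could also have changes of unlike sign, a difference that was not tested. Mrpl46 and Mrps11 lie head to head on chromosome 7 (chr7:78775236-78783531, - strand, and chr7:78783119-78792989, + strand) and their ends overlap by 413 bases. Of the exon bases of Mrpl46 12.2% lie opposite Mrps11, and whether counting used strand is not given in the sources used here. Mrpl46 had log2 changes of 0.21, 0.49, 0.48 and 0.66 and passed in IRF7KO (edgeR adjusted p = 0.0215), though not without M-CSF replicate 1, M-CSF replicate 2 or RANKL replicate 2 (up to 0.111). Mrps11 had changes of -0.22, -0.31, -0.20 and -0.22 and passed in none.

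The other parts of mitochondrial translation changed in more than 1 direction. Counts are given for LysMCre, SREBP2ΔM, B6WT and IRF7KO, where 29%, 28.6%, 24.9% and 25.8% of all genes were higher and 28.6%, 27.6%, 22.5% and 23.5% lower, and values of named genes for LysMCre and B6WT. Of 15 translation and expression factors 11, 10, 10 and 10 were higher and 2, 2, 1 and 1 lower, with medians of 0.77, 0.81, 0.73 and 0.76. Gfm1, an elongation factor, rose by 1.26 ± 0.12 and 1.33 ± 0.10 on the log2 scale (edgeR adjusted p = 4.29e-05 and 4.53e-05), Tufm, the elongation factor that delivers tRNAs, by 1.07 and 1.03, and Oxa1l, which inserts the new proteins into the inner membrane, by 1.26 and 1.03. Lrpprc, which stabilises mitochondrial mRNAs, rose by 1.00 and 1.02, whereas its partner Slirp fell by 0.67 and 0.59 (edgeR adjusted p = 0.00758 and 0.00861). Of 20 genes for tRNA charging 10, 9, 13 and 13 were higher and 1 was lower in each genotype. Wars2 rose by 1.98 and 1.72 and Iars2 by 1.23 and 1.03. Of the amidotransferase that makes glutaminyl-tRNA, Gatb rose by 1.36 and 1.30 and Gatc fell by 0.59 and 0.74.

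Of 26 assembly factors 11, 9, 7 and 12 were higher and 2, 2, 2 and 3 lower, with medians of 0.16, 0.30, 0.22 and 0.38, and in B6WT the share that was higher was close to that of all genes. Mettl15, a methyltransferase of the small-subunit RNA, rose by 2.05 ± 0.21 and 2.01 ± 0.26, and Noa1, a GTPase of ribosome assembly, by 0.95 and 0.92. Rbfa, a small-subunit maturation factor, fell by 0.56 and 0.74, and the pseudouridine synthase gene Trub2 fell by 0.86 and 0.80. The 5 subunit genes with other names had 1, 1, 2 and 2 higher calls, with Dap3 (0.53 and 0.67) passing in LysMCre and B6WT and Ptcd3 (0.64) in B6WT. Of 10 genes for mitochondrial transcription and DNA upkeep 3, 3, 4 and 3 were higher and 1 was lower in each genotype. In LysMCre, SREBP2ΔM and IRF7KO the share that was higher was close to that of all genes. Twnk, the helicase, was at 1.05 and 0.98, and its exons share 507 bases with those of Mrpl43 on the opposite strand. Tfam, the packaging factor of mitochondrial DNA, did not pass at 0.25 and 0.42.

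Of the 9 measured of 10 regulators of mitochondrial biogenesis 2, 2, 2 and 2 were higher and 3, 3, 1 and 2 lower. Ppargc1b, a coactivator known for its role in osteoclast mitochondria, rose by 4.82 ± 0.28 and 4.25 ± 0.22 (edgeR adjusted p = 2.78e-06 and 9.85e-06), and Esrra, a nuclear receptor it binds, by 1.25 and 0.95. Pprc1, a relative of Ppargc1b, fell by 0.93 and 0.64. Nrf1 was at -0.39 and -0.19 and did not pass, and Gabpb1 and Myc fell in LysMCre by 0.82 and 1.47 and did not pass in B6WT, at -0.29 and 0.11. Of the 75 nuclear genes for respiratory chain and ATP synthase subunits 75, 74, 74 and 72 were higher in LysMCre, SREBP2ΔM, B6WT and IRF7KO, with medians of 1.48, 1.42, 1.21 and 1.24. Of the cytosolic ribosomal protein genes 15 of 77, 7 of 77, 14 of 76 and 3 of 76 were higher, a smaller share than of all genes in each genotype, with medians of 0.14, 0.10, 0.25 and 0.09. The median of the mitoribosomal genes thus lay between those of these 2 lists in all 4 genotypes, a difference that was described and not tested.

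**Figure D3:**
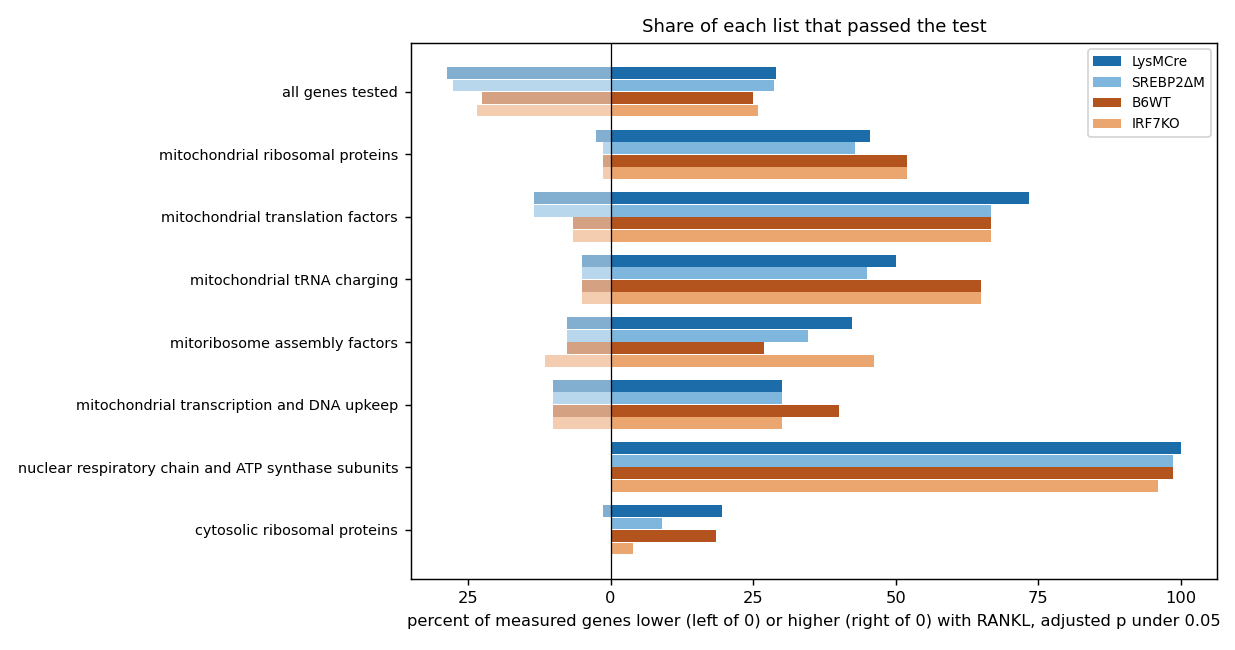
Percent of the measured genes of each list (rows) that passed the test as higher (right of 0) or lower (left of 0, paler) with RANKL in LysMCre, SREBP2ΔM, B6WT and IRF7KO cells, with all genes tested in the top row. The mitochondrial ribosomal proteins, at 42.9 to 51.9% higher, lie between the respiratory chain list and the cytosolic ribosomal proteins.

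The summed level also differed between the 2 libraries of a RANKL group, and other gene lists differed with it. In all 4 RANKL groups replicate 2 had more mitoribosomal mRNA than replicate 1, by a ratio of 1.09 in LysMCre, 1.06 in SREBP2ΔM, 1.07 in B6WT and 1.23 in IRF7KO. In the same order the ratio of the 10 osteoclast markers was 0.887, 0.845, 0.563 and 0.674, and that of 12 proliferation genes 1.61, 1.76, 1.46 and 1.29. The RANKL library with the lower osteoclast marker sum therefore had the higher mitoribosomal sum in each genotype, the opposite of the difference between RANKL and M-CSF. The cytosolic ribosomal protein sum moved the same way as the mitoribosomal sum between replicates in 3 of 4 RANKL groups and 4 of 4 M-CSF groups, and the proliferation sum in 4 of 4 and 2 of 4. The sum of the respiratory chain and ATP synthase genes did so in only 1 of 4 and 3 of 4. Its ratio of replicate 2 to 1 with RANKL was 0.966, 0.955, 0.905 and 1.03 in LysMCre, SREBP2ΔM, B6WT and IRF7KO. Across all genes the replicate differences of the RANKL groups correlated at 0.704 between LysMCre and SREBP2ΔM and at 0.753 between B6WT and IRF7KO, so the 4 groups do not give 4 separate observations. The proliferation genes summed to 3417 to 3635 CPM with M-CSF and 548 to 968 CPM with RANKL in the SREBP2 experiment and to 2753 to 3137 and 1280 to 1871 CPM in the IRF7 experiment, and 12, 12, 6 and 6 of 12 were lower with RANKL. The part of cell division, of the extent of osteoclast formation or of the neutrophil marker difference in the mitoribosomal values was not tested.

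**Figure D4:**
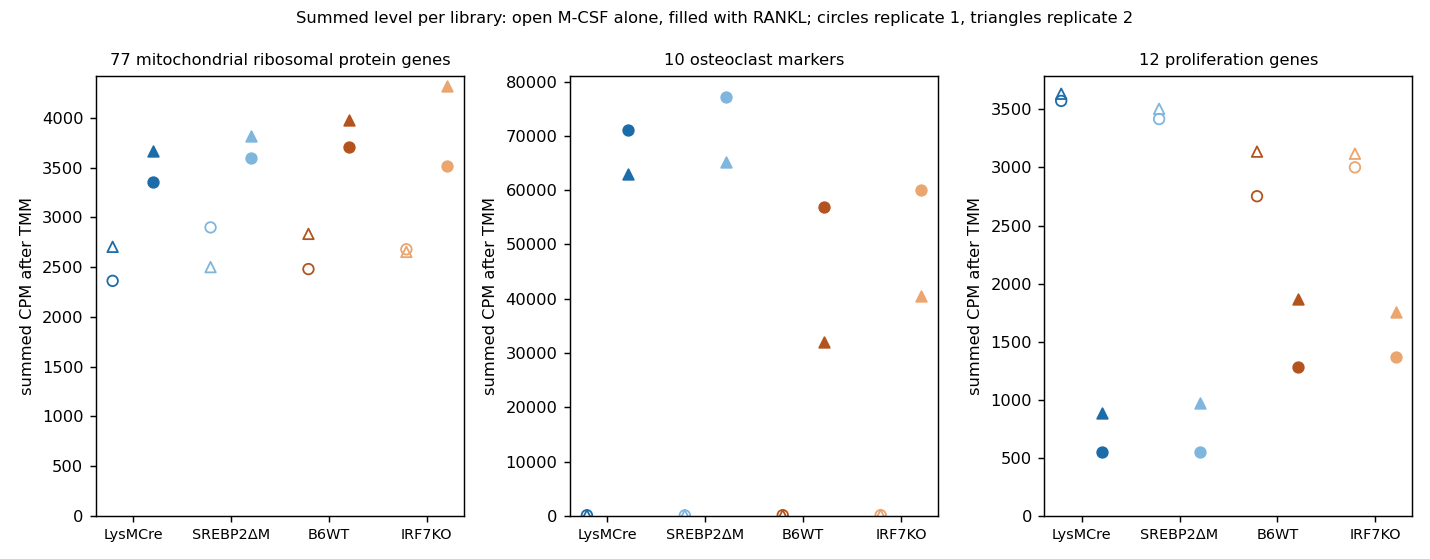
Summed CPM after TMM scaling (vertical axes, starting at 0) of the 77 mitochondrial ribosomal protein genes, 10 osteoclast markers and 12 proliferation genes in each of the 16 libraries; open symbols are M-CSF alone, filled symbols are with RANKL, circles are replicate 1 and triangles replicate 2. Every RANKL library has a higher mitoribosomal sum than the M-CSF libraries, and within each RANKL pair the triangle is higher for the mitoribosomal and proliferation sums and lower for the osteoclast sum.

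Loss of SREBP2 changed no mitoribosomal gene past the threshold. Under M-CSF 0 of the 77 genes were called by edgeR's quasi-likelihood test between SREBP2ΔM and LysMCre, where 0.0557% of all genes were (6 genes), and under RANKL 0 were, where 0.0372% were (4 genes). The test of whether the RANKL response differed between the genotypes also called 0, as it did for 0% of all genes. At an unadjusted p under 0.05 the counts were 0, 0 and 0 of 77, where 1.32%, 3.62% and 1.11% of all genes passed, shares at which few of 77 genes would, and DESeq2 and limma-voom called 0 in each as well. The log2 differences ranged from -0.22 to 0.31 under M-CSF and from -0.17 to 0.30 under RANKL, against a median SE of 0.15. The smallest p under M-CSF belonged to Mrpl58 (0.26 ± 0.13, edgeR adjusted p = 1), followed by Mrpl36 (0.31 ± 0.16), Mrpl23, Mrpl34 and Mrps15. Under RANKL it belonged to Mrpl17 (0.20 ± 0.13), followed by Mrpl50, Mrpl46, Mrps26 and Mrpl23. For the difference in response the order was Mrpl4 (-0.36 ± 0.24), Mrpl36, Mrpl35, Mrps36 and Mrps15.

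Though no single gene passed, 66 of the 77 differences under M-CSF and 67 under RANKL were above 0, with medians of 0.09 and 0.07, whereas 49.4% and 52.6% of all genes were above 0. Other lists were shifted in the same way: 76 and 72 of 77 cytosolic ribosomal protein genes were above 0, with medians of 0.14 and 0.08, and 72 and 61 of 75 respiratory chain genes, with medians of 0.12 and 0.06, and none of these genes passed. Neutrophil markers summed to 242 to 261 CPM in LysMCre and 65.3 to 154 CPM in SREBP2ΔM with M-CSF, with 0 of 8 above 0 and a median of -1.25, and their part in the shift was not tested. The groups did not overlap with SREBP2ΔM higher for 12 and 14 of the 77 genes, where 11.4% and 14.2% of all genes were so placed, and with SREBP2ΔM lower for 1 and 1, where 10.5% and 15.4% were. The summed levels of 2533 ± 242 and 2699 ± 282 CPM with M-CSF (mean ± SD, n = 2) and of 3508 ± 220 and 3706 ± 162 CPM with RANKL in LysMCre and SREBP2ΔM differed by less than the larger SD of the 2 groups. Between libraries of the same number, the SREBP2ΔM sum was higher in both with RANKL (3592 against 3353 and 3821 against 3664 CPM) and higher in 1 and lower in 1 with M-CSF (2899 against 2362 and 2500 against 2704 CPM), though no source says that the numbers pair the libraries. Genes of the set share these libraries, so the count above 0 is not a count of independent observations.

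Loss of IRF7 likewise changed no mitoribosomal gene past the threshold. Between IRF7KO and B6WT 0 of 77 were called under M-CSF and 0 under RANKL by edgeR, where 0.0185% of all genes (2 genes) were in each, and 0 for the difference in response, as for 0% of all genes. DESeq2 and limma-voom called 0 in each. At an unadjusted p under 0.05 the counts were 1, 0 and 0 of 77, where 1.31%, 2.94% and 1.12% of all genes passed, so that 1 gene is no more than the share of all genes. The 1 gene was Mrps35 under M-CSF, at 13.4 and 18.03 CPM in B6WT and 19.9 and 21.1 CPM in IRF7KO (0.38 ± 0.16 on the log2 scale, edgeR adjusted p = 1). Mrps35 and Mrps6 also had the smallest p-values for a difference in response (-0.33 ± 0.22 and -0.35), and neither passed. Under RANKL the order was Mrpl32 (-0.18 ± 0.12), Mrps15, Mrpl48, Mrps25 and Mrpl44. Here 41 and 43 of the 77 differences were above 0, with medians of 0.008 and 0.013. The summed levels were 2657 ± 250 and 2666 ± 18.3 CPM with M-CSF and 3845 ± 193 and 3919 ± 573 CPM with RANKL in B6WT and IRF7KO. Mrpl23, the only gene of the set within 10 Mb of Irf7, had RANKL changes of 0.11, 0.06, 0.03 and -0.03 and passed in no comparison.

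**Figure D5:**
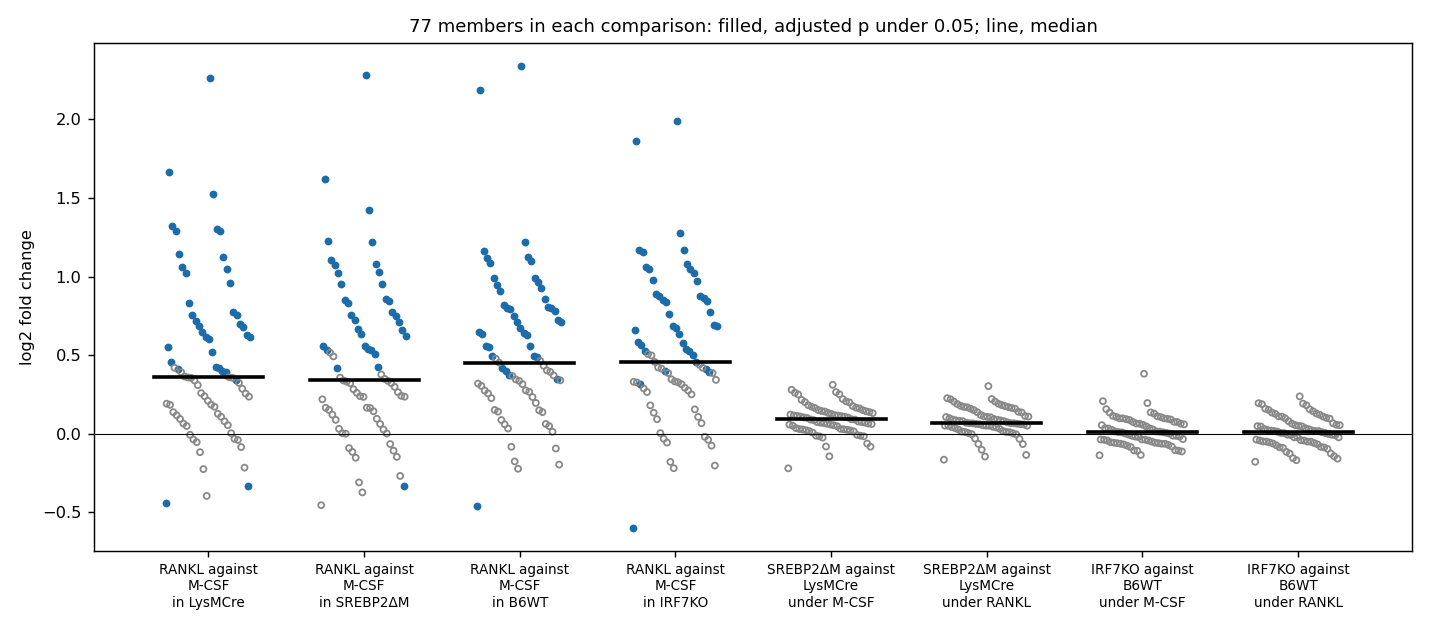
Log2 fold change (vertical axis) of the 77 mitochondrial ribosomal protein genes in the 4 comparisons of RANKL with M-CSF and the 4 comparisons of genotypes; filled points had an adjusted p under 0.05, open points did not and black lines are medians. The RANKL comparisons have medians of 0.34 to 0.46 and filled points in each, and the genotype comparisons have medians of 0.008 to 0.09 and none.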

How the data were processed

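Paired-end RNA-seq libraries (stranded TruSeq mRNA) were made from 16 BMM samples. Per the labels the authors used bcl2fastq 1.8.4, fastp, STAR 2.7.3a and edgeR on mm10. No counter, strand setting or annotation release is stated in these sources. The count values are whole read counts per gene as the authors deposited them, 1 table per experiment, with a filtered sheet that drops low genes; the log2 normalised sheets the authors deposited were not used, and they hold no comparison used here. Gene places in the files were compared with GENCODE mouse release 21 (72 of 77 the same).

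Counts of kept genes were fitted with edgeR 4.0.16 (R 4.3.3; TMM, robust quasi-likelihood F test), 8 libraries and 4 groups of an experiment in 1 model with 4 residual degrees of freedom and no replicate block. P-values were adjusted by Benjamini and Hochberg over all genes, with calls at 0.05. SE is the log2 fold change over the square root of F. DESeq2 1.42.0, limma-voom (limma 3.58.1) and other settings were alternatives. Replicates differed beyond sampling noise in every group.

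The genes and lists were chosen with earlier results of these data known. Named genes were the 5 largest called rises and falls with RANKL whose libraries did not overlap, the 5 smallest p in each genotype comparison, genes called in all 4 genotypes, the 5 highest and lowest per length, genes of special role, genes within 10 Mb of Srebf2 or Irf7, and up to 4 per list. Genes with a printed promoter were chosen after their values were seen.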

Additional observations from a re-analysis of the deposited data

How the results depend on the processing

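With 2 libraries per group, leaving out 1 library gave 22 to 34 higher calls among the 77 genes in LysMCre, 26 to 33 in SREBP2ΔM, 24 to 39 in B6WT and 24 to 50 in IRF7KO, and 0 to 1, 0 to 1, 0 to 0 and 0 to 2 lower calls. A lone library was assumed to vary like the other groups. In each of these fits fewer of all genes were higher than with all libraries. The lowest counts in LysMCre lay nearer to the share of all genes than 35 of 77 did. The median log2 fold changes of the 77 genes without a library ranged over 0.26 to 0.46, 0.23 to 0.47, 0.35 to 0.58 and 0.31 to 0.62. Under the other settings the higher calls were 29 to 35, 31 to 35, 34 to 48 and 36 to 49. Of all genes 2860 to 3659, 2811 to 3493, 2517 to 3115 and 2602 to 3286 were then higher. Those settings tested 10764 to 21497 genes in the SREBP2 experiment and 10788 to 22001 in the IRF7 experiment. The lower calls depended on the setting in 3 genotypes. In LysMCre they were 0 with DESeq2's Wald test, 1 with the likelihood ratio test, 1 with no filter on low counts and 1 with the replicate number as a block. In SREBP2ΔM they were 0 with DESeq2's Wald test, the likelihood ratio test, no filter, the replicate block, and only the groups compared in the fit. In B6WT they were 0 with DESeq2's Wald test, no filter, and only the groups compared. The causes were not tested. Calls of higher genes present in all 13 settings were 21 of 35, 24 of 33, 24 of 40 and 24 of 40. None of the 153 calls of single genes with RANKL changed direction under an alternative. Of the 30 genes higher in all 4 genotypes, 18 kept all of their calls under every alternative run and 12 lost at least 1: Mrpl2, Mrpl3, Mrpl12, Mrpl30, Mrpl36, Mrpl37, Mrpl42, Mrpl43, Mrpl50, Mrpl51, Mrps5 and Mrps34. Of their 120 calls 27 were lost under at least 1 alternative, and 6 under one other than leaving out a library. Genotype and interaction counts were 0 in every setting run.

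Labels number the libraries 1 and 2 in each group, but only 2 pairs exist per comparison and no source says that a number marks a shared animal or day, so the numbers do not establish pairs. The correlations of replicate differences across genes were 0.308, 0.191, 0.174 and 0.0922 between the M-CSF and RANKL groups of a genotype, 0.704 and 0.753 between the RANKL groups of an experiment, and 0.154 and 0.504 between its M-CSF groups. The replicate block changed no count of higher calls by over 1.5 times. The lowest gene here was at 6.2 CPM, where 1 count is 0.0710 to 0.140 CPM.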
